A study of Mus musculus with 13 samples.

Results

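The Parse whole transcriptome library held 20 tissue samples, and 4 of them, called thymic samples 1 to 4, came from mouse thymus and were compared with the other 16 as whole samples. They were chosen by position: the cells of the 4 thymic samples entered the 8 first-round wells C7 to C12, D1 and D2, and the cells of the others entered the remaining 40. After cells with fewer than 500 or more than 25000 unique molecular identifiers (UMIs, each marking 1 captured transcript) were left out, 39414 of 124506 cells were thymic. By the study's methods, the thymic samples are the 2 lobes of each of 2 female C57BL/6N mice, 2 months old and with no treatment named, so that the 4 samples stand for 2 animals. No source used here ties a sample to a mouse. The other samples carry names of the forms CVS_C (5 samples), CVS_S (6 samples) and YD_C (5 samples) and filled the same kit. The series describes thymic and splenic samples of young and adult mice with control or chronic stress treatment, but gives neither tissue, age nor treatment for any 1 of these 16, so they are called other samples. The paper counts these 16 as non-thymic and as unrelated to its comparison of kits. Tissue and first-round well cannot be told apart, since no well held both kinds of sample. Because lobes of 1 mouse are not independent, the p-values and standard errors (SE) over 4 thymic samples are too small.

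The thymus is where T cells mature. Immature thymocytes rearrange the genes of the T cell receptor with the RAG recombinase, carry both coreceptors CD4 and CD8 for most of their time in the thymic cortex, and are then selected on peptides held by MHC molecules of stromal and dendritic cells. The spleen, a filter of the blood, holds mostly B cells, with mature T cells, macrophages of the red pulp, natural killer cells and, in mice, blood-forming cells. A comparison of whole thymus with B cell rich samples therefore sets a developing T lineage tissue beside one of mature lymphocytes.

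For each sample the UMIs of its cells were summed per gene. The total outside ribosomal RNA ran from 17420000 to 66190000 UMIs in the thymic samples and from 4040000 to 43040000 in the others. Levels are given as CPM, the UMIs of a gene outside ribosomal RNA scaled to a common total per sample with TMM, and each gene was tested with the quasi-likelihood test of edgeR with Benjamini-Hochberg adjustment over the 17995 genes tested. Log2 fold changes are thymic over other and are given ± SE. The SE was taken as the absolute log2 fold change divided by the square root of the F statistic of that test. A gene is said to rise or fall where its adjusted p was under 0.05 and its change at least 2-fold. Genes with too few counts were not tested, but a gene could pass that filter through its counts in 1 group alone. The direction of genes nearly absent from 1 group, which the lists below also count, was then largely set by the filter. The levels of 1 gene are compared between samples and not with those of another gene, since they were not divided by length.

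By this rule, 2592 genes (14.4% of those tested) rose and 4237 (23.5%) fell. In all 4 thymic samples 3256 genes (18.1%) lay above every other sample and 2969 (16.5%) lay below every other sample, and of these 2086 also rose and 2615 also fell. With the lobes summed in pairs, so that 2 thymic samples remained, 2464 to 2491 genes rose and 3906 to 3970 fell over the 3 possible pairings. At least 16-fold differences were found for 269 genes that rose and 856 that fell. Among 1163 genes with at least 100 CPM in every sample, 92 rose and 54 fell. That limit leaves out genes that are low in either group, so that large changes are rarer there by construction. The median change over all genes tested was a log2 fold change of -0.04. Without TMM it was -0.22, and 30.3% in place of 37.96% of the called genes were then higher in the thymic samples. All directions below are relative to this centre. The shares of 14.4% and 23.5% are the background for the counts of each list below.

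**Figure D1:**
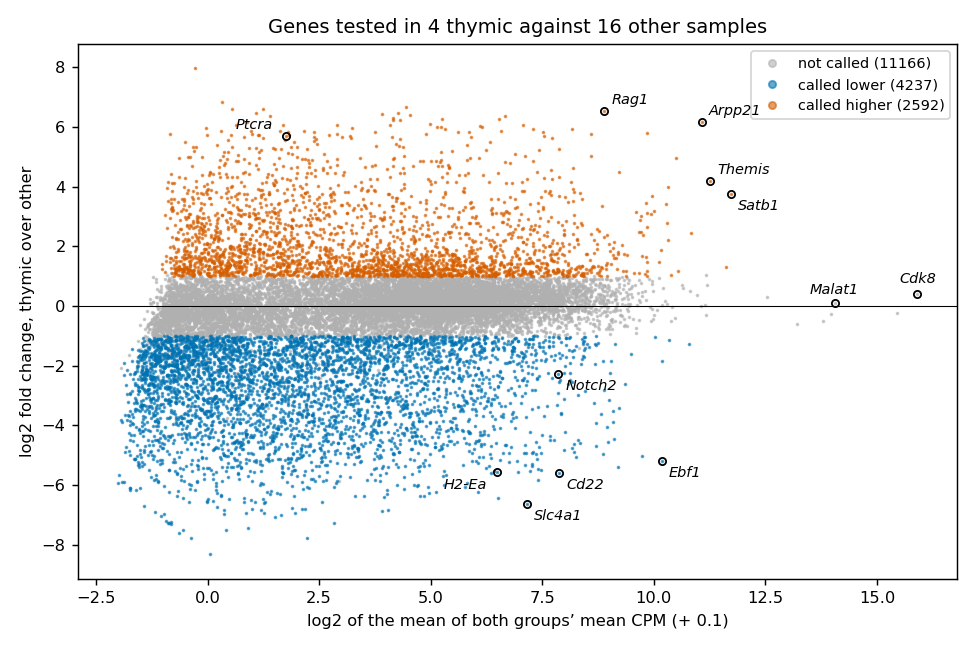
Log2 fold change (thymic over other, vertical axis) against the log2 of the mean of both groups' mean CPM (horizontal axis) of the 17995 genes tested, with genes that rose and genes that fell in colour. The 4237 genes that fell outnumber the 2592 that rose, and at high levels most points lie near the centre line.

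The thymic samples held the defining markers of thymocytes and the other samples those of B cells. Rag1, which encodes the catalytic subunit of the recombinase (ENSMUSG00000061311; chromosome 2, 101638282 to 101649501, minus strand on GRCm38), was at 1029, 853, 969.6 and 879 CPM in thymic samples 1 to 4 and at 4.62 to 24.6 CPM with a median of 6 in the others. For shares of cells at equal depth, each cell with at least 1000 UMIs outside ribosomal RNA was thinned to 1000, and shallower cells were left out. This kept 32851 of 39414 thymic cells and 68356 of 85092 cells of the other samples, or 77.7% to 89.8% of the cells of a thymic sample and 55.7% to 93.95% of those of an other one. Of the thymic cells kept, 54.3%, 48.5%, 51.8% and 49.4% held a Rag1 UMI, and 0.502% to 1.79% of those of an other sample did. Over all cells without thinning, the shares were 68.7% to 75.5% and 1.04% to 4.18%. Every thymic sample was thus far above every other sample in the summed level and in the share of cells. Cd79a, a signalling chain of the B cell receptor, was at 9.22, 2.85, 2.46 and 2.66 CPM against 52.7 to 222 CPM with a median of 132. The markers of the other samples are therefore those of a B cell rich tissue. No source used here labels their tissue sample by sample, so that their origin could not be checked.

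Low levels of Rag1 in the other samples were uneven between wells. Before TMM scaling, Rag1 lay between 4.04 and 37.8 CPM in their 40 wells, with a median of 6.32, and between 686 and 1059 CPM in the 8 thymic wells. Of the 40 wells, 27 were under 10 CPM, while 7 wells of 5 samples (A1, A2, A11, A12, B11, C1 and D10) were over 20 CPM. Only 48 of the 85092 cells of the other samples (0.0564%) held 3 or more Rag1 UMIs, and these cells carried 7.25% of the Rag1 UMIs of those samples, whereas 16794 of 39414 thymic cells (42.6%) held as many and carried 87.1%. The source of these UMIs was not tested. With the 5 samples left out, a choice made after these levels were seen, 2542 genes rose and 4283 fell, and 2398 and 4057 of them were shared with the calls above. The change of Rag1 was then 7.29 in place of 6.53, that of Arpp21 7.06 in place of 6.16 and that of Dntt 6.67 in place of 5.93. Since the samples were left out for their Rag1, its larger change was fixed by that choice.

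**Figure D2:**
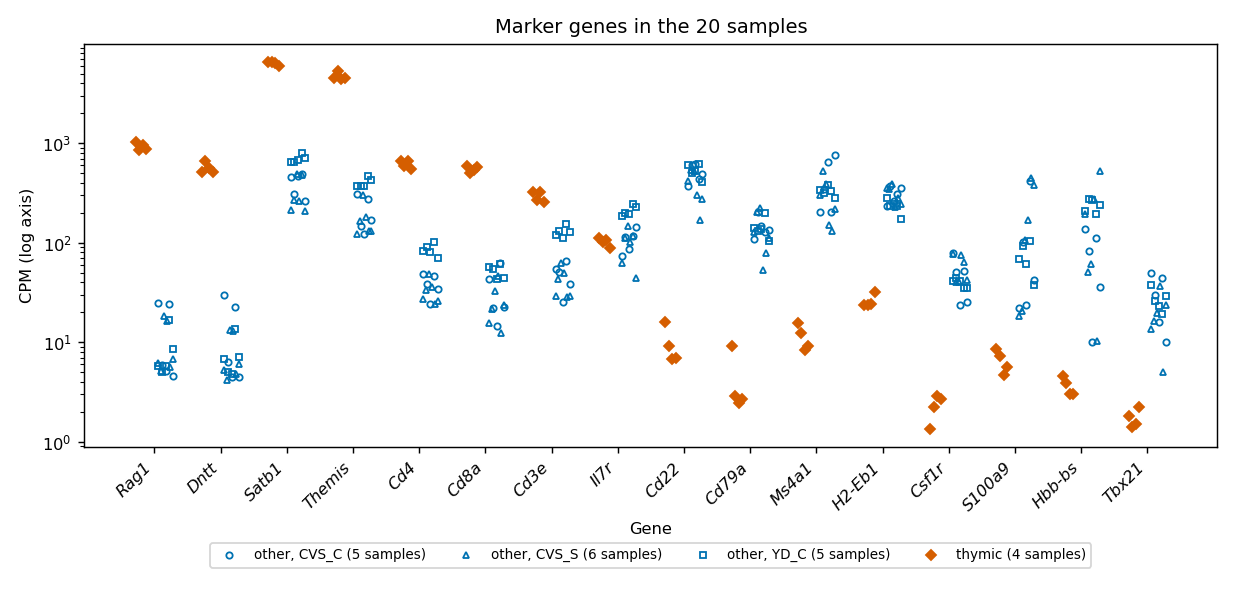
Levels in CPM (vertical axis, log scale) of 16 marker genes (horizontal axis) in the 4 thymic and the 16 other samples, 1 point per sample, with the 3 name sets of the other samples as different symbols. The thymocyte genes such as Rag1 (853 to 1029 CPM against 4.62 to 24.6) lie higher in each thymic sample, and the B cell genes such as Cd22 (6.73 to 15.9 CPM against 170.2 to 617) lie lower.

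The T cell receptor complex and the proteins next to it rose nearly as a whole. The receptor is held at the surface by the CD3 chains and by the zeta chain of Cd247, and its signal is passed on by the kinases Lck and Zap70. Of 22 members listed and tested, 19 rose and 0 fell, and all 19 lay above every other sample. The median log2 fold change of the list was 2.47. The summed level of the list lay between 11960 and 13080 CPM in the thymic samples and between 1272 and 4273 CPM in the others. In a summed sample, fewer cells of a type and less RNA per cell cannot be told apart, and shares of cells are therefore given beside the levels.

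Cd247 (ENSMUSG00000005763; chromosome 1, 165788681 to 165877277, plus strand) was at 1848, 1812, 1624 and 1731 CPM, and at 83.7 to 388 CPM with a median of 169.9 in the other samples (log2 fold change 3.08 ± 0.31, adjusted p = 2.61e-08). The groups did not overlap, and a Cd247 UMI was found in 78.7%, 76.7%, 73% and 74.4% of thymic cells at equal depth against 6.99% to 26.9%. Skap1, an adaptor of T cell receptor signalling to integrins, was at 3077, 3276, 2973 and 2934 CPM against 214 to 1055 CPM with a median of 398 (log2 fold change 2.45 ± 0.34, adjusted p = 2.4e-06).

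Cd3e, the epsilon chain, was at 327, 271, 321 and 256 CPM and at 25.3 to 154 CPM with a median of 52.5 in the other samples (log2 fold change 2.06 ± 0.37, adjusted p = 6.33e-05). Its change was among the smaller ones of the list, and the 5 samples named YD_C, with 112 to 154 CPM, were closer to the thymic level than the CVS samples, which lay between 25.3 and 66.1 CPM. Against YD_C, CVS_C and CVS_S separately the change was 1.17, 2.59 and 2.77. The 3 remaining members did not pass the test, namely Fyn, a Src family kinase (0.38 ± 0.18), Cd226, an adhesion receptor also of natural killer cells (0.33 ± 0.40), and Cd2, an adhesion molecule of T and B cells (-0.28 ± 0.24).

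The gene segments of the receptors moved in opposite directions. Of 144 annotated T cell receptor variable segments 57 could be tested, of which 50 rose and 0 fell, with a median log2 fold change of 3.22. Their summed level was 178 to 235 CPM in the thymic samples and 8.44 to 45.5 CPM in the others. Of 218 immunoglobulin variable segments 118 could be tested, 113 of them fell, 50 with groups that did not overlap, and the median was -5.67. Thymic sample 1 held 28.7 CPM of these segments and the other 3 thymic samples held 4.61 to 6.95 CPM, against 93.5 to 455 CPM in the other samples. All 7 T cell receptor constant segments that were tested rose and all 12 immunoglobulin constant segments that were tested fell. A segment could enter the test through its counts in 1 group alone. Variable segments of each kind were scarce in 1 group, so the direction of those tested was largely set by the filter. The summed levels cover all annotated segments and do not depend on it. Segments of a family are near-identical in places, so that the split of UMIs between single segments is uncertain, and the counts are given for whole classes.

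The machinery of receptor gene rearrangement rose in part. The recombinase and the polymerase Dntt act only in developing lymphocytes, while the proteins that rejoin the ends also repair broken DNA in other cells. Of 14 members 8 rose and 1 fell, with a median log2 fold change of 1.51, beside 14.4% and 23.5% over all genes tested. In place of 1, 2 fell without thymic sample 1 or 3, with 2 of the 3 pairings of lobes, without TMM, against YD_C alone and without the 5 samples of raised Rag1. Rag1 had the largest change of the 12 genes that led the increases (log2 fold change 6.53 ± 0.38, adjusted p = 4.18e-12). Dntt, the polymerase that adds bases without a template at the joints (chromosome 19, 41029275 to 41059525, plus strand), was at 517, 658, 563 and 514 CPM against 4.19 to 29.5 CPM with a median of 6.18 (log2 fold change 5.93 ± 0.38, adjusted p = 2.32e-11). Both genes were higher in 4 of 4 thymic samples than in any other sample. Ptcra, the surrogate alpha chain of the pre-T cell receptor, was at only 5.72, 5.81, 7.1 and 6.93 CPM but was nearly absent elsewhere, at 0 to 0.434 CPM with a median of 0.111 (log2 fold change 5.69 ± 0.34, adjusted p = 5.64e-12). It was present in under 1% of thymic cells at equal depth (0.631%, 0.474%, 0.716% and 0.588%). Ptcra could enter the test through the thymic samples alone, so that its direction was largely set by the filter.

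Among the repair proteins of the list, Xrcc6, the Ku70 subunit that binds broken ends, was at 517, 679.8, 659 and 569 CPM against 28.5 to 59.6 CPM with a median of 43.1 (log2 fold change 3.77 ± 0.12, adjusted p = 1.06e-15). Its partner Xrcc5 (Ku80) was lower but under the 2-fold limit (-0.53 ± 0.17), and the kinase Prkdc did not pass the test (-0.15 ± 0.10). Poll, a polymerase that fills gaps at the ends, was the member that fell, at 0.934, 0.773, 1.18 and 0.954 CPM against 2.28 to 4.97 CPM with a median of 3.65 (log2 fold change -1.91 ± 0.20, adjusted p = 5.44e-08). The rise in this list was therefore uneven, from 6.53 for Rag1 to -1.91 for Poll.

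The list of coreceptors and genes of double-positive thymocytes rose in 16 of 20 tested members, all 16 of them above every other sample, with 1 that fell and a median of 3.46. One further symbol of the list, Tarp, was not in the gene table. Cd4 (chromosome 6, 124864692 to 124888221, minus strand) was at 669.6, 590.0, 658 and 548 CPM against 24.1 to 102 CPM with a median of 42.2 (log2 fold change 3.60 ± 0.29, adjusted p = 9.25e-10). Cd8a (chromosome 6, 71373427 to 71379173, plus strand) was at 584, 498, 533 and 575 CPM against 12.4 to 63.2 CPM with a median of 37.9 (log2 fold change 3.92 ± 0.30, adjusted p = 4.84e-10). Cd8b1, the beta chain of the same coreceptor, was at 328, 375, 349 and 274 CPM against 10.1 to 65.5 CPM with a median of 27.1 (log2 fold change 3.33 ± 0.33, adjusted p = 2.18e-08). Cd4 was found in 48.4%, 39.9%, 43.4% and 37.4% and Cd8a in 40.9%, 34.9%, 36.9% and 37.6% of thymic cells at equal depth, against 2.43% to 9.4% and 1.17% to 5.91%.

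Among other members of the list, Themis, a T lineage protein needed for positive selection, was at 4493, 5305, 4393 and 4475 CPM against 123 to 470.0 CPM with a median of 230.0 (log2 fold change 4.20 ± 0.29, adjusted p = 6.91e-11). Satb1, an organiser of chromatin in thymocytes, was at 6483, 6493, 6323 and 5978 CPM against 206 to 799 CPM with a median of 475 (log2 fold change 3.77 ± 0.26, adjusted p = 7.91e-11). At equal depth a Satb1 UMI was found in 96.3%, 97.7%, 96.8% and 96.7% of thymic cells, and in 14.6% to 49.2% of the cells of the other samples. The groups did not overlap for either gene.

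Arpp21, a phosphoprotein gene that also hosts a microRNA of thymocytes, was at 4211, 4519, 4139 and 4183 CPM against 24.2 to 161 CPM with a median of 34 (log2 fold change 6.16 ± 0.43, adjusted p = 8.69e-11). Ccr9, the receptor for the thymic chemokine CCL25, was at 562, 602, 526 and 565 CPM against 9.96 to 36.4 CPM with a median of 23.6 (log2 fold change 4.63 ± 0.21, adjusted p = 1.7e-13). Plxnd1, a semaphorin receptor that guides thymocytes towards the medulla, was at 278, 208, 285 and 221 CPM against 6.29 to 23.3 CPM with a median of 13.8 (log2 fold change 4.15 ± 0.25, adjusted p = 8.12e-12). The member that fell was Cd53, a tetraspanin of white blood cells in general, at 96.8, 69.3, 72.2 and 69.6 CPM against 77.7 to 267 CPM with a median of 171 (log2 fold change -1.07 ± 0.31, adjusted p = 0.00468), and its groups overlapped. It did not meet the rule in the second well of each sample or against CVS_S alone.

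Transcription factors of the T lineage rose in 12 of 20 members, and 1 fell, with a median of 1.13. Over all genes tested 14.4% rose and 23.5% fell. With the lobes summed in pairs 11 rose, without TMM 9 did, and against YD_C alone 10 rose and 2 fell. T lineage factors commit progenitors to this lineage and hold later choices open. Those with the highest summed levels are also used by B cells. Runx1 was at 2050, 1894, 1924 and 1989 CPM against 780.0 to 1492 CPM with a median of 1227, a change of 0.71 ± 0.13 that was under 2-fold although the groups did not overlap. Ikzf1 (Ikaros) was at 1963, 2070, 1839 and 1958 CPM against 965 to 1828 CPM with a median of 1309, with a change of 0.60 ± 0.14. Ets1 rose, at 2138, 2166, 1976 and 2010 CPM against 482 to 1343 CPM with a median of 988 (log2 fold change 1.16 ± 0.21, adjusted p = 5.86e-05).

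Of the members that rose, Tcf7 (TCF-1), a first target of Notch signals, changed by 3.69 ± 0.28, Bcl11b, which seals the T lineage choice, by 3.43 ± 0.28, Gata3 by 3.11 ± 0.23, Myb by 4.49 ± 0.28 and Sox4 by 5.72 ± 0.36. These 5 were singled out after their values were seen. Zbtb7b (ThPOK), the factor of the CD4 lineage in mature T cells, was the member that fell, at 18.1, 12, 18.7 and 12.7 CPM against 23.6 to 71.2 CPM with a median of 53 (log2 fold change -1.74 ± 0.21, adjusted p = 4.47e-07).

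Notch receptors did not move together. Notch signals, given by ligands on thymic epithelium, drive progenitors into the T lineage, and Notch2 serves marginal zone B cells of the spleen. Of 17 members of the list of Notch and early progenitor genes that were tested, 3 rose and 6 fell, with a median of -0.25. Over all genes tested 14.4% rose and 23.5% fell, so that the share that rose was near the background. Notch1 and Il2ra were under 2-fold with cells thinned to 1000 UMIs (0.73 and 0.90) and against YD_C alone (0.73 and 0.69), so that only Notch3 met the rule there. Notch3, active before the double-positive stage, was at 59, 66.2, 65.3 and 102 CPM against 0.691 to 5.6 CPM with a median of 2.49 (log2 fold change 4.70 ± 0.27, adjusted p = 3.29e-12). Notch1 was at 179, 123, 172 and 169 CPM against 43.1 to 110.1 CPM with a median of 68 (log2 fold change 1.15 ± 0.20, adjusted p = 3.71e-05). Notch2 was at 100.5, 61.9, 81 and 73.8 CPM against 269.7 to 536 CPM with a median of 378 (log2 fold change -2.28 ± 0.19, adjusted p = 1.57e-09). The groups were apart for all 3 receptors, upwards for Notch1 and Notch3 and downwards for Notch2.

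Among other members of that list, Dtx1, a Notch target and regulator, was at 19.9, 11.7, 12.8 and 14.1 CPM against 116 to 257 CPM with a median of 174 (log2 fold change -3.63 ± 0.26, adjusted p = 8.21e-11). Il2ra (CD25), which marks progenitors before the double-positive stage as well as regulatory T cells, was at 74.1, 62.3, 67.1 and 68.8 CPM against 8.44 to 45.7 CPM with a median of 23.7 (log2 fold change 1.37 ± 0.32, adjusted p = 0.000908). It was found in 2.81%, 3.52%, 3.39% and 3.42% of thymic cells at equal depth, which overlapped the share of 0.649% to 3.6% in the other samples although the summed levels did not.

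The promoters of some of these genes are shown with a motif whose binding proteins are known in the same lineages. In thymocytes and B cells, E proteins (the products of Tcf3 and Tcf12) bind E-boxes with the letters CAGGTG. Promoter windows of RefSeq on GRCm38.p6, from 250 bases before to 50 bases after each annotated start, were found for 12284 of the genes tested (68.3%), and 15 motifs were searched on both strands. Those described here were chosen after the matches were counted. A window held CAGGTG for 7 of 13 genes of the T cell receptor complex, for 6 of 12 genes of double-positive thymocytes and for 12 of 15 genes of the B cell receptor complex, but for 1 of 12 genes of receptor gene rearrangement, which is Rag1, and 3 of 14 of the B cell factors, against 21.6% of all 12284 genes. The share was 24.4% among genes that rose and 23.9% among genes that fell, so that the motif was about as frequent in either direction. Shown are 200 bases in the direction of transcription, of which the last 25 run from the start on, for Rag1 (chr2:101649508-101649707, minus strand) and Cd247 (chr1:165788506-165788705, plus strand), which rose, and for Cd79a (chr7:24897322-24897521, plus strand) and Cr2 (chr1:195176695-195176894, minus strand), which fell. Capitals mark the motif, which on the opposite strand reads CACCTG. The start that RefSeq gives for Rag1 lies outside the GENCODE span of Rag1 given above and is the base at which the GENCODE span of Iftap, a gene on the same strand, begins, so that this window may not be particular to Rag1.
Rag1: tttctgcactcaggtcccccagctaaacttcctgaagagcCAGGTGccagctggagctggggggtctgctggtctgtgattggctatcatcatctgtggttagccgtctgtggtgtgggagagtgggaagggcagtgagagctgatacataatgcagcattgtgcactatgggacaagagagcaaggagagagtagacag
Cd247: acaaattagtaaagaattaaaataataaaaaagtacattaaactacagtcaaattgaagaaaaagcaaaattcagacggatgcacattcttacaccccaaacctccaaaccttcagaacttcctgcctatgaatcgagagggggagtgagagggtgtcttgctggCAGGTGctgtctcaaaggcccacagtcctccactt
Cd79a: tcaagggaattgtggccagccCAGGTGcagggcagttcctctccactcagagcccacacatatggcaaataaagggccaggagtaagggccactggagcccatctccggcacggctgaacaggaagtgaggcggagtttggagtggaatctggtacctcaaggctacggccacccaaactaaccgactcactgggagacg
Cr2: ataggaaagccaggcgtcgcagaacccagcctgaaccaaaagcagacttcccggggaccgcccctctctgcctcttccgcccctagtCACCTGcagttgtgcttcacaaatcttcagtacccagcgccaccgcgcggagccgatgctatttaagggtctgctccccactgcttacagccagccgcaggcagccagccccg
The match begins 135 bases before the start in Rag1, 10 before it in Cd247, 154 before it in Cd79a and 88 before it in Cr2. A match in letters is not a site of binding, and no binding was measured here.

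Over all genes, in the lists or not, the 12 largest increases among those with at least 100 CPM in the thymic samples and no overlap included Rag1, Syt13, Tdrd5, Arpp21, Aqp11, Gm32004, Trim12a, Dntt, Smoc1, Iftap and Gm40841. Syt13, of the synaptotagmin family of membrane traffic proteins, was at 229.7, 165, 194 and 208 CPM against 0.65 to 6.89 CPM with a median of 1.56 (log2 fold change 6.38 ± 0.41, adjusted p = 2.05e-11). Tdrd5, a Tudor domain protein known from the germ line, was at 187, 194, 187 and 165 CPM against 0.765 to 5.55 CPM with a median of 2.06 (log2 fold change 6.27 ± 0.31, adjusted p = 4.93e-13). Aqp11, a water channel of intracellular membranes, was at 268, 279, 264 and 244 CPM against 1.52 to 7.82 CPM with a median of 3.12 (log2 fold change 6.06 ± 0.32, adjusted p = 8.96e-13). For these 3 genes the share of cells with a UMI was between 12.3% and 21.4% in the thymic samples and at most 0.866% in any other.

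Smoc1, a secreted calcium-binding protein, was at 169, 209, 210.3 and 165 CPM against 1.35 to 7.54 CPM with a median of 2.22 (log2 fold change 5.88 ± 0.32, adjusted p = 1.41e-12). Trim12a, of the TRIM family, was at 138, 158, 121 and 139 CPM against 1.04 to 4.95 CPM with a median of 1.93 (log2 fold change 5.99 ± 0.29, adjusted p = 3.67e-13), and close relatives of it in the genome make its count uncertain. Iftap (chromosome 2, 101560781 to 101649532, minus strand) was at 318, 421, 368 and 338 CPM against 2.93 to 13 CPM with a median of 4.64 (log2 fold change 5.85 ± 0.30, adjusted p = 6.42e-13). Its annotated span holds the whole of Rag1 on the same strand, so that UMIs of these 2 genes cannot be told apart with certainty, and no source used here states how overlapping genes were counted. Gm32004 (6.04 ± 0.39) and Gm40841 (5.84 ± 0.34) are noncoding transcripts on chromosome 13 with no role named here.

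**Figure D3:**
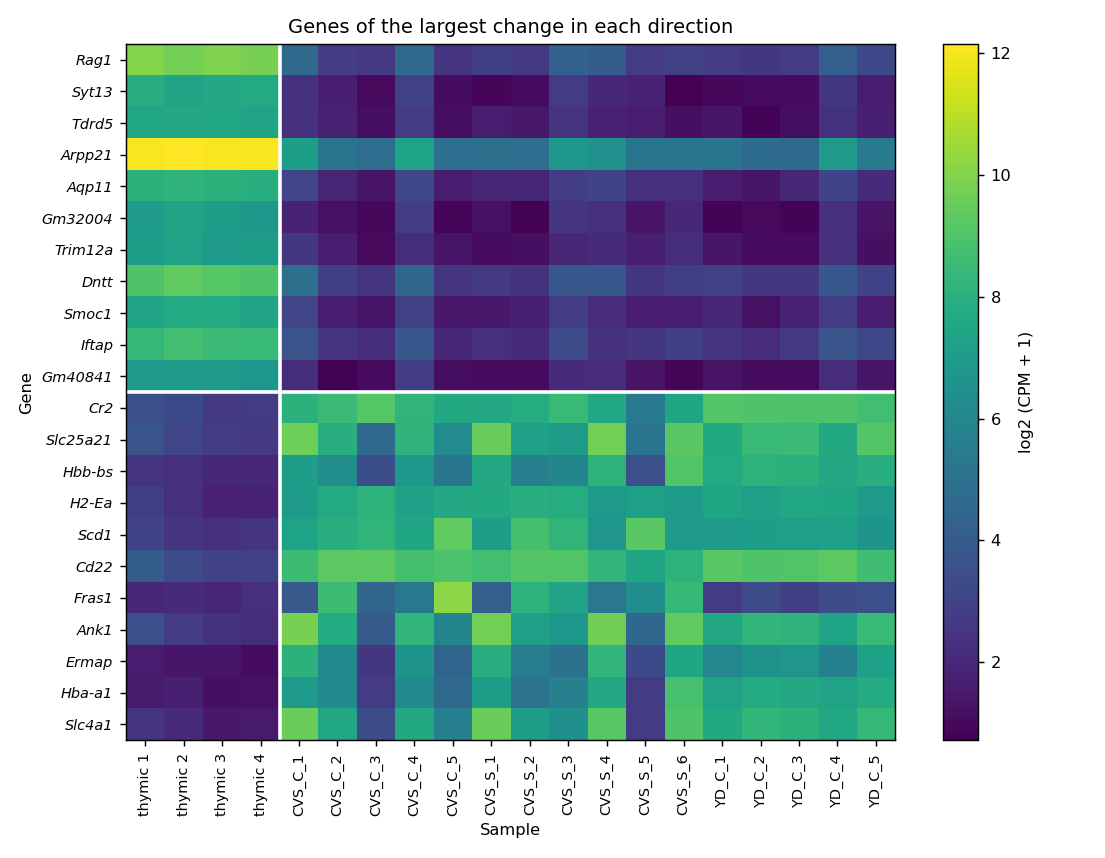
Levels as log2 (CPM + 1) (colour) of 11 of the 12 genes with the largest increases (upper rows) and 11 of the 12 with the largest decreases (lower rows) in each of the 20 samples (columns, thymic samples first). Rag1 (853 to 1029 CPM in the thymic samples) and the other genes of the upper rows are even over the thymic samples, while Slc4a1 (5.81 to 766 CPM) and the other erythroid genes of the lower rows vary widely among the other samples.

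The B cell receptor complex fell in 23 of 24 members, with 0 that rose, and all 23 lay below every other sample. The receptor is a surface immunoglobulin with the chains CD79A and CD79B, whose signal runs through the kinases Lyn, Syk and Btk and is set by coreceptors such as CR2 and CD22. The median log2 fold change of the list was -4.57. Its summed level was 765 to 1031 CPM in the thymic samples and 5816 to 14970 CPM in the others.

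Cd22, an inhibitory lectin of B cells (chromosome 7, 30865402 to 30880342, minus strand), was at 15.9, 9.14, 6.73 and 6.93 CPM against 170.2 to 617 CPM with a median of 496 (log2 fold change -5.59 ± 0.38, adjusted p = 5.36e-11). Ms4a1 (CD20) was at 15.6, 12.4, 8.31 and 9.21 CPM against 131 to 753 CPM with a median of 325 (log2 fold change -4.93 ± 0.48, adjusted p = 1.78e-08). Thymic sample 1 held the highest level of the 4 for both genes, and all 4 stayed below every other sample. Without thymic sample 1 the change of Cd79a was -5.75 in place of -5.06.

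Cd79b changed by -3.76 ± 0.35 and Cr2, the complement receptor of B cells, by -5.45 ± 0.59. Ighm, the constant part of IgM (log2 fold change -3.14 ± 0.37, adjusted p = 2.61e-07), was at 112, 95.9, 104 and 103 CPM against 217 to 1468 CPM with a median of 936, and an Ighm UMI was found in 11.1%, 8.18%, 8.83% and 7.61% of thymic cells at equal depth against 19.5% to 55.6%. The adaptor Bank1 was at 79.9, 51.8, 31.2 and 40.6 CPM against 702 to 3544 CPM with a median of 1553 (log2 fold change -5.02 ± 0.46, adjusted p = 6.53e-09). Syk, a kinase that precursors of T cells use as well, was at 108, 79.3, 80.3 and 83.3 CPM against 562 to 1617 CPM with a median of 891 (log2 fold change -3.51 ± 0.31, adjusted p = 2.46e-09). Ralgps2, a guanine nucleotide exchange factor, was the member that did not pass the 2-fold limit (-0.94 ± 0.29), and its groups overlapped.

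Transcription factors of B cells followed, with 14 of 16 that fell, 1 that rose and a median of -3.99. With the lobes summed in pairs 12 fell. Ebf1 and Pax5 set up and keep the B lineage. Pax5 was at 46, 25.5, 19.2 and 19.7 CPM against 487 to 1477 CPM with a median of 1254 (log2 fold change -5.39 ± 0.37, adjusted p = 4.8e-11). Ebf1 was at 97.7, 60, 42.5 and 47.5 CPM against 820.3 to 4110 CPM with a median of 2249 (log2 fold change -5.18 ± 0.40, adjusted p = 3.75e-10). The groups did not overlap for either gene, and at equal depth Ebf1 was found in 6.11%, 5.06%, 3.12% and 3.8% of thymic cells against 33.9% to 86.4%.

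Of the other members, Bach2, a repressor that also keeps T cells naive, was at 850.4, 643, 636 and 622 CPM against 504 to 2428 CPM with a median of 1141 (log2 fold change -1.02 ± 0.38, adjusted p = 0.0251), its groups overlapped, and it lost its call when thymic sample 2, 3 or 4 was left out. Bcl6, which acts in germinal centre B cells and follicular T cells and is expressed in double-positive thymocytes, rose, at 151, 162, 160.5 and 134 CPM against 37.7 to 107 CPM with a median of 67.9 (log2 fold change 1.06 ± 0.20, adjusted p = 8.28e-05). Without thymic sample 2, without TMM, with a filter of 10 CPM, in the first well of each sample and against YD_C alone it no longer met the rule. Xbp1, the factor of antibody secretion, was at 37.3, 28.1, 30.9 and 29.7 CPM against 19.1 to 62.5 CPM with a median of 31.7 and did not pass the test (-0.16 ± 0.23).

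Of the markers of plasma cells, the source of secreted antibody, Jchain, which joins polymers of IgM and IgA, was at 2.39, 1.92, 1.53 and 2.16 CPM against 5.89 to 76.5 CPM with a median of 38.4 (log2 fold change -4.15 ± 0.65, adjusted p = 1.06e-05). Sdc1 (CD138) was at 1.28, 0.853, 1.68 and 0.954 CPM against 0.659 to 5.76 CPM with a median of 3.5 (log2 fold change -1.60 ± 0.43, adjusted p = 0.00276), with groups that overlapped. Xbp1, the remaining marker, did not pass the test (-0.16 ± 0.23).

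**Figure D4:**
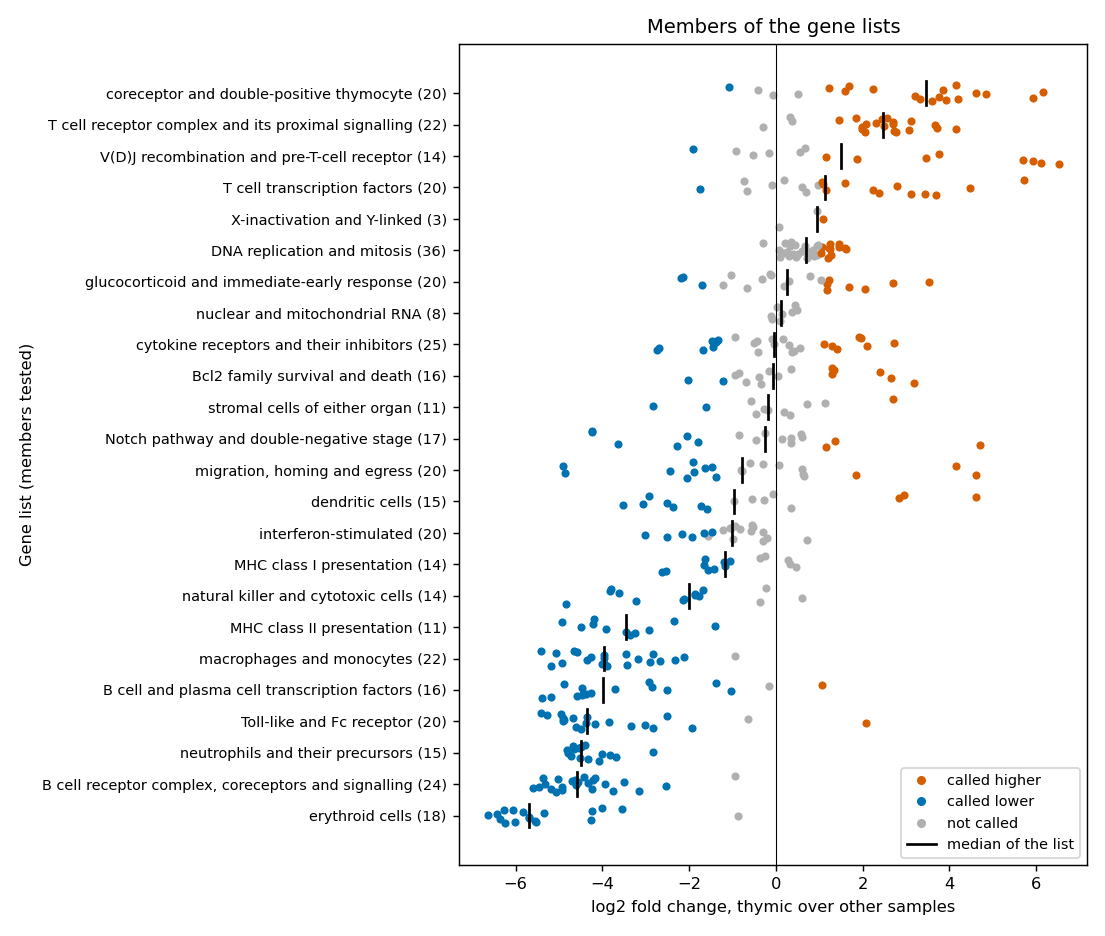
Log2 fold changes (horizontal axis, thymic over other) of the members of the 24 gene lists (vertical axis, with the number of members tested), 1 point per gene, and the median of each list as a bar. The medians run from -5.69 for the erythroid list to 3.46 for the list of double-positive thymocytes, and the lists of cytokine signalling and of apoptosis hold points on both sides.

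MHC class II genes fell in 11 of 11 members, each below every other sample, with a median of -3.46. Their products show peptides to CD4 T cells and are made by B cells, dendritic cells, macrophages and thymic epithelium. Cd74, the invariant chain, was at 56.2, 40.9, 56.9 and 54.6 CPM against 467 to 1053 CPM with a median of 778 (log2 fold change -3.91 ± 0.26, adjusted p = 3.8e-11). H2-Eb1, a beta chain, was at 23.6, 23.5, 24.3 and 32 CPM against 172 to 392 CPM with a median of 270.0 (log2 fold change -3.46 ± 0.22, adjusted p = 1.2e-11). Ciita, the transactivator that switches these genes on, was at 27, 15.5, 14.6 and 17.3 CPM against 181 to 542 CPM with a median of 430.2 (log2 fold change -4.49 ± 0.26, adjusted p = 4.61e-12). The transactivator and its targets thus fell together, and Cd74 was found in 3.21%, 2.56%, 2.29% and 2.22% of thymic cells at equal depth against 31.7% to 57.7%. H2-Ea, an alpha chain that is annotated as a polymorphic pseudogene, was among the 12 largest decreases, at 6.19, 3.79, 2.43 and 2.66 CPM against 119 to 278 CPM with a median of 173 (log2 fold change -5.58 ± 0.32, adjusted p = 3.85e-12).

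MHC class I genes, which most cells express and double-positive thymocytes hold low, fell by less, with 9 of 14 that fell, 0 that rose and a median of -1.18. Over all genes tested 23.5% fell. H2-K1 was at 79.7, 60.7, 79.6 and 79.7 CPM against 279.5 to 709 CPM with a median of 421 (log2 fold change -2.62 ± 0.22, adjusted p = 1.63e-09). H2-D1 was at 75.5, 84.4, 92.4 and 86.4 CPM against 289 to 746 CPM with a median of 467 (log2 fold change -2.54 ± 0.22, adjusted p = 2.49e-09). Nlrc5, the transactivator of class I genes, was at 156, 93.8, 112 and 116 CPM against 177 to 644 CPM with a median of 353 (log2 fold change -1.65 ± 0.29, adjusted p = 4.81e-05). The genes of this family are near-identical in parts, and the split of UMIs between H2-K1, H2-D1 and relatives is uncertain. Of the other members, the peptide transporter Tap2 was higher but under the 2-fold limit (0.47 ± 0.12). H2-Q7 (0.27 ± 0.30) and the immunoproteasome subunit Psmb8 (0.33 ± 0.20) did not pass the test.

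Promoters of both MHC classes are known for an S-X-Y module, whose Y box holds the letters CTGATTGG and is bound by NF-Y. These letters, which contain the CCAAT box ATTGG, stood in a window of 4 of 8 class II genes and 6 of 12 class I genes, against 6.34% of all 12284 genes, and in 9 of 30 genes of the cell cycle list. H2-Aa (chr17:34287799-34287998, minus strand), H2-Eb1 (chr17:34305692-34305891, plus strand) and H2-K1 (chr17:34000323-34000522, minus strand) are shown in the same way as above, with the match to these letters in capitals. In H2-K1 the match was found on the opposite strand, as CCAATCAG, and past the start. Whether a match is the Y box of the module was not tested, and this holds for the counts as well.
H2-Aa: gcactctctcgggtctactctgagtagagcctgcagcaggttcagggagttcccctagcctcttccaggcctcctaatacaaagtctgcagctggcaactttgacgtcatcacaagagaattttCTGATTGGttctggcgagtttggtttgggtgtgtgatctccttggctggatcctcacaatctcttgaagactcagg
H2-Eb1: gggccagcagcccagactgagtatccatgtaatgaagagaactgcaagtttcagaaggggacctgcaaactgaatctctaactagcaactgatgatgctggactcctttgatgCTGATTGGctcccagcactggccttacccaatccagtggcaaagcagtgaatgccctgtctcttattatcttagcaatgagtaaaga
H2-K1: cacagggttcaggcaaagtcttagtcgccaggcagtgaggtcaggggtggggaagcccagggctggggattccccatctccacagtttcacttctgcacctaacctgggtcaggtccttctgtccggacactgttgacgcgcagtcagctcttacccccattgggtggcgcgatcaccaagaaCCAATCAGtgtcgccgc
The match begins 51 bases before the start in H2-Aa and 62 before it in H2-Eb1, and it begins at base 9 in H2-K1, counted with the start as base 1.

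Toll-like and Fc receptors, by which B cells and myeloid cells sense microbes and antibody, fell in 18 of 20 tested members with a median of -4.36. Cd180, a relative of Toll-like receptors on B cells, was at 13, 9.52, 6.57 and 7.25 CPM against 114 to 602 CPM with a median of 251 (log2 fold change -4.91 ± 0.38, adjusted p = 3.81e-10), and its partner Ly86 (MD-1) was at 11.8, 9.52, 9.15 and 10.4 CPM against 189.6 to 573 CPM with a median of 257 (log2 fold change -4.89 ± 0.32, adjusted p = 3.02e-11). Unc93b1, which escorts the endosomal receptors, was at 12.3, 9.79, 9.44 and 10.2 CPM against 199 to 359 CPM with a median of 258 (log2 fold change -4.67 ± 0.19, adjusted p = 3.88e-14). The member that rose was Tlr12, a receptor for profilin of protozoa, at 5.61, 8.88, 8.25 and 8.84 CPM against 0.355 to 3.66 CPM with a median of 1.88 (log2 fold change 2.07 ± 0.36, adjusted p = 4.25e-05), and Myd88, the common adaptor, did not pass the 2-fold limit (-0.65 ± 0.26).

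Genes of macrophages and monocytes fell in 21 of 22 members, with a median of -3.96 and 16 below every other sample. Macrophages of the spleen clear old red cells, and those of the thymus clear dying thymocytes. Adgre1 (F4/80) was at 1.17, 1.39, 2.27 and 1.8 CPM against 7.61 to 48.8 CPM with a median of 24.4 (log2 fold change -3.89 ± 0.38, adjusted p = 1.41e-08). Csf1r, the receptor that macrophages need to live, was at 1.34, 2.24, 2.87 and 2.72 CPM against 23.4 to 78 CPM with a median of 41.7 (log2 fold change -4.35 ± 0.36, adjusted p = 1.34e-09). Cybb, the oxidase of phagocytes that B cells also express, was at 8.35, 7.81, 6.91 and 8.08 CPM against 139 to 298 CPM with a median of 187 (log2 fold change -4.65 ± 0.21, adjusted p = 1.13e-13). Each of these was low in all 4 thymic samples, and the summed level of the list was 36.8 to 55.6 CPM there against 428 to 860 CPM.

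Cd5l, an inhibitor of apoptosis made by tissue macrophages, was at 0.234, 0.133, 0.156 and 0.144 CPM against 0.989 to 6.94 CPM with a median of 2.32 (log2 fold change -3.96 ± 0.55, adjusted p = 2.25e-06). Cd5l could enter the test through the other samples alone, so that its direction was largely set by the filter. Lyz2 changed by -4.25 ± 0.48. C1qa, a complement chain, was at 0.0584, 0.747, 0.685 and 2.27 CPM against 0.963 to 17.1 CPM with a median of 7.53 (log2 fold change -2.91 ± 0.72, adjusted p = 0.00144), so that its groups overlapped through thymic sample 4. Without that sample its change was -3.85. Cd68 was the member that did not pass the 2-fold limit (-0.94 ± 0.22).

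Neutrophil genes fell in 15 of 15 members with a median of -4.49, although the other samples differed strongly among themselves. The summed level ran from 153 to 2222 CPM in the other samples and from 21.4 to 48.9 CPM in the thymic ones. Ltf (lactoferrin) was at 17.2, 6.75, 4.11 and 4.97 CPM against 39.1 to 785 CPM with a median of 160.2 (log2 fold change -4.71 ± 0.83, adjusted p = 5.07e-05), and without thymic sample 1 its change was -5.38. Every thymic sample was thus below the lowest other sample in the sum and in Ltf. S100a9, a subunit of calprotectin, was at 8.58, 7.25, 4.64 and 5.65 CPM against 18.5 to 447 CPM with a median of 81 (log2 fold change -4.34 ± 0.99, adjusted p = 0.000732). Ngp, a granule protein of young neutrophils, was at 9.75, 4.72, 3.92 and 3.4 CPM against 14.4 to 446 CPM with a median of 87.9 (log2 fold change -4.52 ± 0.97, adjusted p = 0.000384). The SE of these changes were near 1, larger than those of the B cell genes. S100a8, the partner of S100a9, was at 3.21, 2.13, 2.18 and 2.18 CPM against 3.88 to 159 CPM with a median of 23.9 (log2 fold change -4.08 ± 1.04, adjusted p = 0.0019).

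Genes of neutrophil granules are known targets of C/EBP factors. The letters TTGCNNAA, in which N is any base, stood in a window of 7 of 14 neutrophil genes against 10.7% of all 12284 genes, and GAGGAAGT, which PU.1 is known to bind and which contains the ETS letters GGAAGT, in 6 of 14 against 3.84%. Other lists held them as well, with GAGGAAGT in 5 of 14 genes of apoptosis and 3 of 15 of macrophages and TTGCNNAA in 5 of 17 Toll-like and Fc receptor genes and 4 of 13 of the T cell receptor complex. The promoter of Ngp (chr9:110419633-110419832, plus strand), with both matches to TTGCNNAA in capitals, is an example.
Ngp: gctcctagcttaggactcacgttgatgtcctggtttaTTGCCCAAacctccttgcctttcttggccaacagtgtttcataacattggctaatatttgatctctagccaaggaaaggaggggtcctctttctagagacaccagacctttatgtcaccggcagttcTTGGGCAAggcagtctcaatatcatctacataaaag
The matches begin 138 and 11 bases before the start. The second was found on the opposite strand, so that it is printed as TTGGGCAA.

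Of the 24 lists, erythroid genes had the lowest median, with imprecise changes: 17 of 18 members fell, 9 of them below every other sample, and the median was -5.69. The spleen of mice makes red cells alongside the bone marrow. Slc4a1, the anion exchanger of the red cell membrane, was at 4.5, 3.41, 1.71 and 1.96 CPM against 5.81 to 766 CPM with a median of 200.5 (log2 fold change -6.63 ± 1.19, adjusted p = 5.8e-05). Hba-a1, an alpha globin with a near-identical copy, was at 1.93, 2.27, 1.31 and 1.46 CPM against 5.48 to 455 CPM with a median of 128 (log2 fold change -6.25 ± 1.10, adjusted p = 4.96e-05). The other samples spread widely, and the lowest of them came close to the thymic levels. The summed levels overlapped, at 122 to 144 CPM in the thymic samples against 129 to 4664 CPM.

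Ank1 (ankyrin, -5.82 ± 1.07), Sptb (beta spectrin, -5.33 ± 1.05), Ermap (-6.05 ± 1.06), Hbb-bs (beta globin, -5.53 ± 0.98), Alas2, the first enzyme of haem synthesis in red cells (-4.25 ± 0.89), and Klf1, the factor that switches globin genes on (-5.69 ± 1.08), fell as well. Alas2, Klf1 and Sptb had groups that overlapped. Tfrc, the transferrin receptor that all dividing cells use, was the member that did not pass the test (-0.88 ± 0.51).

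Other genes among the 12 largest decreases had various roles. Fras1, an extracellular matrix protein, was at 3.09, 3.28, 2.87 and 3.89 CPM against 5.72 to 1153 CPM with a median of 30.1 (log2 fold change -5.60 ± 1.67, adjusted p = 0.00631), and its level in the others was set by few samples: the sample CVS_C_5 held 1153 CPM, the 5 samples named YD_C held 5.72 to 10.5 CPM, and without CVS_C_5 the change was -4.82. With the lobes summed in pairs it did not pass the test. Scd1, a desaturase of fatty acids, was at 7.18, 4.64, 3.96 and 4.61 CPM against 99.7 to 663 CPM with a median of 156 (log2 fold change -5.58 ± 0.66, adjusted p = 3.15e-07). Slc25a21, a mitochondrial carrier, was at 12, 7.6, 5.73 and 5.29 CPM against 23.4 to 835 CPM with a median of 264 (log2 fold change -5.50 ± 0.94, adjusted p = 3.52e-05).

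Natural killer and cytotoxic genes fell in 11 of 14 tested members with a median of -1.99, while their defining markers disagreed. Over all genes tested 23.5% fell. Ncr1 (NKp46) was at 0.292, 0.48, 0.28 and 0.306 CPM against 1.26 to 29.8 CPM with a median of 5.14 (log2 fold change -4.84 ± 0.94, adjusted p = 0.000135). Ncr1 could enter the test through the other samples alone, so that its direction was largely set by the filter. Tbx21 (T-bet), the factor of cytotoxic and helper cells, was at 1.81, 1.41, 1.5 and 2.25 CPM against 4.98 to 50 CPM with a median of 23.2 (log2 fold change -3.83 ± 0.50, adjusted p = 1.06e-06). Gzma was at 9.87, 16.2, 11.9 and 16 CPM against 1.08 to 23.9 CPM with a median of 5.35 (0.59 ± 0.60), and Klrb1c (NK1.1) was at 0.934, 1.2, 1.34 and 1.24 CPM against 0.217 to 4.79 CPM with a median of 0.679 (-0.37 ± 0.59), and neither passed the test. The direction of both turned with the name set of the other samples, to -0.55 for Gzma against YD_C and 1.05 for Klrb1c against CVS_S.

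Dendritic genes moved in both directions, with 3 of 15 members that rose, 7 that fell and a median of -0.97, beside 14.4% and 23.5% over all genes tested. Dendritic cells of the thymus show self peptides to thymocytes. Flt3, the receptor they depend on, was at 7.53, 7.04, 7.63 and 7.07 CPM against 12.7 to 40.3 CPM with a median of 21.6 (log2 fold change -1.59 ± 0.26, adjusted p = 1.82e-05). Xcr1, of cross-presenting cells, was at 0.642, 1.2, 1.31 and 1.08 CPM against 0 to 1.73 CPM with a median of 0.858 and did not pass (0.36 ± 0.38). Siglech, of plasmacytoid cells, was at 3.85, 7.92, 6.07 and 6.03 CPM against 1.52 to 46.6 CPM with a median of 12.8 (log2 fold change -1.73 ± 0.64, adjusted p = 0.0232), with overlap, and it lost its call without thymic sample 1 or 4. The defining markers thus did not move together. Cadm1, an adhesion molecule of cross-presenting cells, was at 6.42, 8, 7.88 and 9.14 CPM against 25.2 to 105 CPM with a median of 59.6 (log2 fold change -2.92 ± 0.33, adjusted p = 1.39e-07).

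The 3 members that rose are not all particular to dendritic cells. Ccr9 is also on the list of double-positive thymocytes. Ly6d, which early lymphoid precursors carry, was at 24, 41.5, 33.8 and 41.1 CPM against 1.36 to 24.4 CPM with a median of 3.31 (log2 fold change 2.84 ± 0.47, adjusted p = 2.36e-05), with 1 other sample at 24.4 CPM that reached the thymic range. Ccl22, a chemokine of mature dendritic cells, was at 1.05, 1.81, 0.872 and 2.07 CPM against 0 to 0.65 CPM with a median of 0.152 (log2 fold change 2.96 ± 0.45, adjusted p = 6.59e-06).

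Of the 3 markers of thymic epithelium, whose cells guide thymocytes, 2 were at or near 0. Foxn1, the master factor of these cells, was at 0, 0.0533, 0.311 and 0.144 CPM, and Psmb11, the beta5t subunit of the cortical proteasome, was at 0.117, 0.08, 0.156 and 0.108 CPM, with at most 0.240 and 0.215 CPM in the other samples, and both were too low to be tested. Epcam was at 3.5, 3.68, 2.74 and 4.59 CPM against 0.721 to 16.7 CPM with a median of 2.73 (-0.46 ± 0.66) and did not pass, and its direction turned to 1.36 against YD_C alone. Of 22 stromal genes 11 were tested, of which 1 rose, Pdgfrb, a receptor of mural cells and fibroblasts, at 8.06, 7.49, 8.84 and 9.48 CPM against 0.543 to 3.1 CPM with a median of 1.1 (log2 fold change 2.70 ± 0.29, adjusted p = 6.77e-08), and 2 fell, shares below the 14.4% and 23.5% over all genes tested. Without a filter on low counts 6 rose, without thymic sample 1 or 2 and with the lobes summed in pairs 2 rose, and with the lobes summed 1 fell. One of the members that fell was Stab2, a scavenger receptor of the sinusoids of the spleen, at 3.04, 1.41, 1.18 and 1.96 CPM against 4.12 to 22.3 CPM with a median of 13.8 (log2 fold change -2.82 ± 0.40, adjusted p = 3.38e-06). Pecam1 (-0.18 ± 0.19) and the chemokine Ccl25 (0.33 ± 0.12) did not meet the rule.

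**Figure D5:**
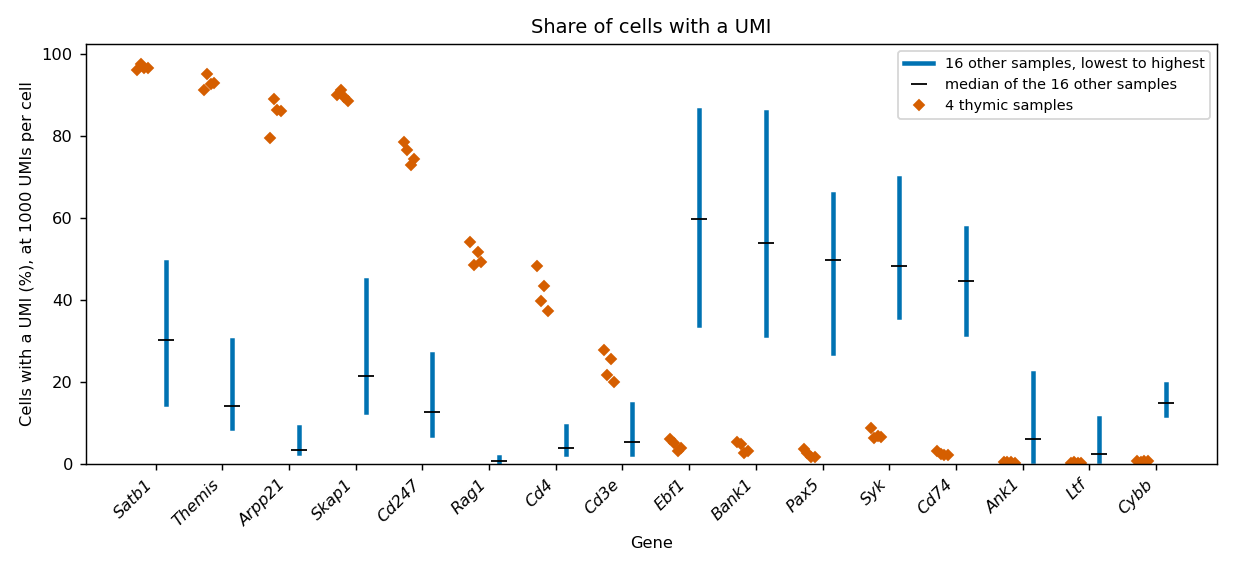
Share of cells with at least 1 UMI of a gene (vertical axis, percent) for 16 genes (horizontal axis), over the cells with at least 1000 UMIs outside ribosomal RNA, each thinned to 1000. Points are the 4 thymic samples, and lines run from the lowest to the highest of the 16 other samples with the median as a tick. Satb1 was found in 96.3% to 97.7% of thymic cells against 14.6% to 49.2%, and Ebf1 in 3.12% to 6.11% against 33.9% to 86.4%.

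Genes of the cell cycle rose in 11 of 36 members and fell in 0, with a median of 0.70, beside 14.4% and 23.5% over all genes tested. In the thymus, precursors divide before and after the first receptor chain is made. Mki67 (Ki-67) was at 655, 953, 689 and 919 CPM against 69.8 to 999 CPM with a median of 485 (0.72 ± 0.45, adjusted p = 0.174), so that several other samples reached the thymic levels. Top2a, which untangles DNA, was at 454, 719.7, 558 and 731 CPM against 39.1 to 625 CPM with a median of 230.0 (log2 fold change 1.21 ± 0.46, adjusted p = 0.0284), with overlap, and it lost its call without thymic sample 2, 3 or 4. Ezh2, a histone methyltransferase that dividing cells need, was at 352, 424, 394 and 402 CPM against 35.2 to 279 CPM with a median of 142 (log2 fold change 1.46 ± 0.39, adjusted p = 0.00249) without overlap. The count changed with the samples used. With the lobes summed in pairs 4 or 5 members rose in place of 11, without thymic sample 2 or 4 it was 6, without sample 3 it was 7, without TMM it was 6, and against CVS_S alone it was 3, so that the share was at or below the background with the lobes summed and against CVS_S.

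Genes of migration moved in both directions. Of 20 members 3 rose and 9 fell, with a median of -0.79. The share that rose was near the 14.4% over all genes tested, of which 23.5% fell. S1pr1, the receptor by which mature cells leave the thymus and lymph nodes, was at 24.4, 23.9, 21.6 and 19.3 CPM against 35.3 to 146 CPM with a median of 90.4 (log2 fold change -2.04 ± 0.35, adjusted p = 3.76e-05), and Klf2, the factor that switches it on, was at 16.6, 13.8, 17.6 and 13.9 CPM against 27.5 to 95.7 CPM with a median of 53.6 (log2 fold change -1.88 ± 0.28, adjusted p = 5.24e-06). Beside Ccr9 and Plxnd1, Ccr4, by which selected thymocytes enter the medulla, rose, at 20.8, 16.7, 16.1 and 18.8 CPM against 2.51 to 7.46 CPM with a median of 4.66 (log2 fold change 1.84 ± 0.18, adjusted p = 2.01e-08). S1pr1 and Klf2 thus lay below every other sample and Ccr4 above every other sample. The integrin chains Itga4 (-0.78 ± 0.13) and Itgal (0.60 ± 0.16) changed in opposite directions by less than 2-fold, and Dock2, which drives movement of all lymphocytes, did not pass (-0.30 ± 0.18).

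Cytokine receptors and their signalling genes rose in 7 of 25 members and fell in 7, with a median of -0.05, beside 14.4% and 23.5% over all genes tested. Stat5b, which passes on signals of IL-7 and IL-2, was at 708, 643, 694 and 636 CPM against 136 to 235 CPM with a median of 176 (log2 fold change 1.92 ± 0.10, adjusted p = 3.48e-13), with a small spread in both groups. Il7r, which double-positive thymocytes lack and mature T cells carry, was at 113, 103, 106 and 88.2 CPM against 44 to 243 CPM with a median of 116 (-0.41 ± 0.33, adjusted p = 0.29). The groups were apart for Stat5b and overlapped for Il7r. Il2rb changed by -1.69 ± 0.25, and Tgfbr2 by -0.50 ± 0.18, under the 2-fold limit.

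Genes of apoptosis changed in both directions as well, with 6 of 16 that rose, 2 that fell and a median of -0.05. In place of 2, 4 fell without TMM, 5 against CVS_C alone and 4 against CVS_S alone. Over all genes tested 14.4% rose and 23.5% fell. Most thymocytes die in the thymus, and BCL2 relatives decide whether a cell lives. Bcl2l1 (BCL-XL), the survival protein of double-positive cells, was at 297, 309, 308 and 301 CPM against 12.1 to 50.3 CPM with a median of 35.7 (log2 fold change 3.18 ± 0.20, adjusted p = 9.64e-12). Bcl2l11 (BIM), which kills thymocytes with self-reactive receptors, was at 584, 493, 499 and 559 CPM against 45.9 to 256 CPM with a median of 75.8 (log2 fold change 2.66 ± 0.27, adjusted p = 3.12e-08). Bcl2, the survival protein of mature lymphocytes, was at 714, 483, 521 and 509.7 CPM against 394 to 1134 CPM with a median of 696 (-0.33 ± 0.19, adjusted p = 0.141). A survival gene and a death gene thus rose side by side, and Bcl2 did not pass the test. The members that fell were Bcl2a1a (-2.01 ± 0.35) and Bcl2a1b (-1.21 ± 0.17), near-identical copies whose counts are uncertain.

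Genes of the glucocorticoid and stress response rose in 7 of 20 members and fell in 3, with a median of 0.25, beside 14.4% and 23.5% over all genes tested. Without TMM 5 fell, and with the lobes summed in pairs 1 did. Double-positive thymocytes are known to be sensitive to glucocorticoids. Nr3c1, the glucocorticoid receptor, was at 873, 941, 789 and 897 CPM against 261 to 739 CPM with a median of 387 (log2 fold change 1.18 ± 0.18, adjusted p = 8.46e-06). Fkbp5, a target and brake of the receptor, was at 945, 999, 900.4 and 1162 CPM against 106 to 789 CPM with a median of 195 (log2 fold change 2.06 ± 0.35, adjusted p = 3.48e-05), and among the others it was at 147 to 789 CPM in CVS_S, 129 to 375 CPM in CVS_C and 106 to 203 CPM in YD_C. Sgk1, another target, fell, at 12.7, 8.96, 10.2 and 9.43 CPM against 19.5 to 44.6 CPM with a median of 34.3 (log2 fold change -1.71 ± 0.18, adjusted p = 7.23e-08).

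The heat shock genes of the list were not stable. Hspa1a (log2 fold change -2.18 ± 0.93, adjusted p = 0.047) and Hspa1b (log2 fold change -2.13 ± 0.84, adjusted p = 0.0324), near-identical copies, were at no more than 0.810 CPM in any thymic sample and overlapped with the others, and both lost the call when thymic sample 1, 2 or 3 was left out, Hspa1b also without sample 4 and Hspa1a also without any of 6 single other samples. Hsp90aa1 was at 158, 368, 244 and 283 CPM against 80.3 to 281 CPM with a median of 137 (0.80 ± 0.27), under the 2-fold limit.

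Interferon-induced genes fell in 6 of 20 members with 0 that rose and a median of -1.0, beside 23.5% of all genes tested that fell, and the counts depended on the samples compared. Against YD_C alone 17 fell, against CVS_C alone 5 fell and 1 rose, and against CVS_S alone 4 fell and 3 rose. Without TMM 10 fell, with thinned cells 9, and with the lobes summed in pairs 4. The summed levels overlapped, at 214 to 237 CPM in the thymic samples against 149 to 1052 CPM. Stat2 (-0.56 ± 0.21), Irf9 (-0.83 ± 0.23) and Ifit2 (0.73 ± 0.40), the members with the highest levels, did not meet the rule.

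Measures of the samples themselves were compared by exact permutation tests, 2-sided, over all 4845 ways to choose 4 of 20 samples, and 7 measures were adjusted together. The thymic samples held 3974, 11676, 9564 and 14200 cells, and the others 2105 to 8365 (exact permutation p = 0.0144, adjusted p = 0.101). mRNA of 89 ribosomal protein genes took 0.399%, 0.835%, 0.590% and 0.658% of UMIs outside ribosomal RNA in thymic samples 1 to 4. In the others it took 0.353% to 0.652% (exact permutation p = 0.033, adjusted p = 0.116). Neither passed after adjustment. Ribosomal RNA took 17.2% to 27.4% of all UMIs against 13.4% to 35.4%. Mitochondrial mRNA took 0.228% to 0.341% of UMIs outside ribosomal RNA against 0.151% to 0.539%. For these, for Malat1, for the median number of UMIs per cell and for genes per cell at 1000 UMIs, raw p was at least 0.481.

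None of 8 genes followed as signs of RNA quality rose or fell by edgeR or by DESeq2. Malat1, a nuclear noncoding RNA, was at 16420, 20430, 15450 and 17830 CPM against 12670 to 20850 CPM with a median of 16900 (0.09 ± 0.14), and the mitochondrial mRNAs mt-Co1 (-0.11 ± 0.23) and mt-Nd5 (0.04 ± 0.29) lay within the range of the others. Cdk8, Cmss1, Lars2 and Gm19951, which with Malat1 held the highest summed levels in both groups, did not pass the test either, with changes between -0.50 ± 0.48 and 0.40 ± 0.64. Cdk8 itself ran from 11140 to 157000 CPM between the thymic samples and from 7519 to 153000 CPM between the others.

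Xist, the noncoding RNA of the silenced X chromosome in females, was at 1367, 1335, 1213 and 1247 CPM against 963 to 1408 CPM with a median of 1298 (0.07 ± 0.11). All 20 samples thus held it, at 963 to 1408 CPM. Of the Y-linked genes Ddx3y, Uty, Kdm5d and Eif2s3y only Ddx3y could be tested, and it has a near copy on the X chromosome, so that its 8.12, 21.2, 15.1 and 18 CPM are uncertain. Tsix, which runs antisense to Xist, rose (log2 fold change 1.08 ± 0.28, adjusted p = 0.00184) through thymic sample 3 with 114 CPM, and without that sample its change was 0.36. No source used here says whether strand was used in the counting.

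The genes with the smallest changes were Lrrfip1, Phf12, Nufip2, Hook3 and Pwwp2a, all with at least 100 CPM in every sample. Phf12, of a histone deacetylase complex, was at 194, 174, 191 and 186 CPM against 169 to 212 CPM with a median of 184, with an SE of 0.07 on the log2 scale. The thymic range of each lay inside the range of the others.

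The thymic samples were close to each other. Over 2308 genes with a thymic mean of at least 100 CPM, the median ratio of the highest to the lowest thymic sample was 1.18, and 61 genes (2.64%) had a ratio over 2. Over the 2135 genes with such a mean in the other samples the median ratio was 2.06. These ratios are over 16 samples in place of 4, so that the numbers are not like for like. Of 6829 genes that rose or fell, 6708 had the same direction in each of sublibraries 1 to 8. These sublibraries divide the same cells on whose sum the genes were called, so that this count was largely fixed in advance. The wells of 1 sample differed by a median of 0.23 on the log2 scale over these genes, and 0 of them had a difference, as the median over the samples, above their fold change. That count too was largely fixed, since the genes were chosen for a change of at least 2-fold. In single samples the wells could differ by more than the fold change, as for Rpph1 (1.84 against a log2 fold change of 1.74). Protein-coding genes (1938 rose and 2923 fell of 14125) and long noncoding RNAs (421 rose and 729 fell of 2471) both had more that fell than rose. The median annotated span was 21.03 kb for genes that rose, 20.8 kb for genes that fell and 22.7 kb over all genes tested.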

How the data were processed

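The authors fixed cells, barcoded them by split-pool rounds in 9 sublibraries, ran split-pipe against the Ensembl mm10 reference (releases not given in the sources used here), collapsed reads to UMIs and deposited counts per cell and gene for all sublibraries together, without normalization. The submitters' processing notes name mm10. Of 128624 deposited cells, 14 had under 500 and 4104 over 25000 UMIs and were left out. Doublets were not removed. No barcode combination was found in more than 1 tissue sample, while 19867 of 103602 occurred in more than 1 sublibrary. Samples and first-round wells came from the deposited cell table, of which 8 further columns with values per cell were not used. Counts were summed per tissue sample. Rn18s-rs5, mt-Rnr1 and mt-Rnr2 were left out of all totals.

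Genes kept by filterByExpr (17995 of 57010) were tested with edgeR 4.0.16 in R 4.3.3 (TMM, robust glmQLFit, glmQLFTest, 2-sided, 4 against 16 samples, no covariates, Benjamini-Hochberg over all genes tested). The procedure was tested on simulated counts of independent samples, in which few genes changed, as many up as down. In these data many genes changed and lobes share mice, so that the simulation does not cover this setting. DESeq2 1.42.0, no TMM, other filters, other cell limits, cells thinned to 1000 UMIs, single wells and sublibraries, and samples left out were alternatives. Python 3.11.15, numpy 2.4.6, scipy 1.17.1, pandas 2.3.3 and matplotlib 3.10.9 did the rest. Positions are those of GENCODE M21 (52029 of 57010 identifiers found, 91.3%), on GRCm38. The promoter motifs searched were those of E proteins (CAGGTG), a second E-box (CAGCTG), the Y box (CTGATTGG), the CCAAT box within it (ATTGG), factors of the ETS family (GGAAGT), their member PU.1 (GAGGAAGT, which holds the former), RUNX (TGTGGT), octamer (ATGCAAAT), KLF (CCACACCC), nuclear receptors (AGGTCA), factors of the erythroid GATA family (AGATAA), LEF1 and TCF-1 (CTTTGA) and C/EBP factors (TTGCNNAA), and 10-letter motifs of EBF1 and IRF. Shares of cells with a UMI are given without an interval and differ with free RNA.

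The samples and the 24 gene lists (435 symbols, 415 tested) were chosen with earlier results of these data known. Named genes were fixed by rule: in each direction the 12 largest changes among called genes with no overlap and at least 100 CPM in the higher group, of each list the 3 members with the highest level and up to 3 called against the majority, the 5 genes of highest level per group, cell type markers, and the 5 smallest changes among genes with at least 100 CPM in every sample. List members named by their change alone, without values by sample, and Tcf7, Bcl11b, Gata3, Myb and Sox4 lay outside the rule and were chosen after their values were seen. A few genes that the rule picked, 1 of the 12 in each direction among them, are not reported here.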

Additional observations from a re-analysis of the deposited data

Results flagged for a closer look

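Within the 4 thymic samples, 148 named values (genes and sample measures) were searched for a sample that stands apart from the other 3, by Dixon's ratio of the gap to the range. Chance flags about 1 in 20 groups, and 14 of the 148 passed. In thymic sample 1 these were Cd53 at 96.8 CPM, Syk at 108, Bach2 at 850.4, Bcl2 at 714, Cd79a at 9.23 and S100a8 at 3.21 CPM, each the highest of the 4. Thymic sample 2 had the highest Themis at 5305 CPM and Ncr1 at 0.480 CPM, and the lowest Cd74 at 40.9 CPM and H2-K1 at 60.7 CPM. Tsix in thymic sample 3 stood apart at 114 CPM. Thymic sample 4 had the highest Notch3 at 102 CPM, H2-Eb1 at 32.1 CPM and Bcl2a1a at 0.972 CPM. Apart from Cd53, Bach2, Bcl2 and Tsix, whose groups overlapped, these values lay on the same side of every other sample as the rest of the thymic group.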

How the results depend on the processing

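The number of genes that rose depended most on the filter and the size limit. Without a filter on low counts 3941 genes rose, with 10 CPM in 4 samples 1152, with an adjusted p alone 5411 and with a 4-fold limit 1052, against 2592. With 10 CPM in 4 samples 1986 genes fell, and with the 4-fold limit 2615, against 4237. With DESeq2 2571 genes rose and 4338 fell, of which 2553 and 4231 were shared with the main calls. With each sample left out in turn 2405 to 2612 rose and 4176 to 4323 fell. Against CVS_C, CVS_S and YD_C alone, 2901, 2327 and 2525 rose. The named genes that turned direction were Gzma against YD_C (-0.55), Klrb1c against CVS_S (1.05), Epcam against YD_C (1.36), Lrrfip1 against YD_C (-0.22) and Ccl22 in sublibrary 6 alone (-0.0396). The cause was not tested. Of the log2 fold changes of named genes under the alternatives, 6261 kept direction and side of the adjusted p threshold, the 2-fold limit aside, 19 passed it newly and 89 no longer did, and a further 134 changes of sign had no call in either fit. The difference in cells lay between 3086 and 6495 with a thymic sample left out, and that in ribosomal protein mRNA between 0.0877 and 0.233 percentage points, with raw p over 0.05 in some cases. No paired analysis was possible because the replicate numbers in the labels are those of sublibraries and pair no thymic tissue sample with an other one. Changes within single sublibraries were computed in its place. Depth limits genes under about 1 CPM, such as Foxn1 and Psmb11.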

Other observations

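Slc15a2, a peptide transporter, was at 328, 21.1, 14.5 and 331 CPM in thymic samples 1 to 4 and at 3.78 to 11.2 CPM in the other samples (log2 fold change 4.45, edgeR adjusted p = 1.41e-08). Its ratio of 22.8 between the highest and the lowest thymic sample was the largest of the 2308 genes with a thymic mean of at least 100 CPM, while the wells of a thymic sample differed by at most 0.12 on the log2 scale. Samples 1 and 4 were thus alike, as were samples 2 and 3. Rpph1, the RNA of ribonuclease P, was at 316, 640.1, 1580 and 1101 CPM, and Ccnb1ip1 at 486, 915, 2575 and 1530 CPM, but their wells differed by up to 1.84 and 1.88. Il31ra was at 72.8, 595, 191 and 637 CPM, and Rps12 at 60.5, 309, 125 and 249.4 CPM, with wells that differed by up to 0.996 and 0.83. These genes were chosen after their values were seen, and their differences between the thymic samples were not tested.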
